A study of Mus musculus with 8 samples.

Results

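Imprinted genes are genes of which mainly the copy from 1 parent is transcribed, and 43 of them, named in a list of known mouse imprinted genes, were followed across embryonic hearts. All 43 were found among the 22869 gene symbols of the count table, and 40 had enough reads to be tested among the 14940 symbols that passed the filter on low counts. Phlda2, Dio3 and Ascl2 did not. RNA was sequenced from atrioventricular (AV) cushions, the swellings of the AV canal that form valves and septa, and from ventricles, both taken at E12.5 from mouse embryos of strain C57BL/6. There were 4 groups of 2 libraries, a cushion and a ventricle group of each genotype, wild type and mutant. The mutant genotype is labelled NfatC1+/-; KLF2fl/fl, which floxes both copies of Klf2, a transcription factor gene that responds to blood flow. What +/- stands for, a lost Nfatc1 copy or a recombinase inserted there, is not stated, and Nfatc1 may thus be altered in the mutants too. Nfatc1 is itself active in endocardium, the inner lining of the heart. Controls carry the label wild type, although the design text sets mutants beside mice with floxed Klf2 alone. Whether the paired libraries of a group are separate embryos or pools is not stated. The p-values therefore measure only the spread between these samples, which could be technical.

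Parental copies of an imprinted gene are told apart by DNA methylation laid down in the germ line, and a control region often sets the state of a whole cluster of genes. Many imprinted genes act on fetal growth. In general, paternally expressed genes such as Igf2 favour growth of the fetus, and maternally expressed genes such as Igf2r, Grb10 and Cdkn1c restrain it. The counts do not separate the parental copies, so what follows concerns the summed RNA of each gene and not its imprinting.

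The promoter sequences of members that differed between the tissues are shown first, because these genes lie in several clusters and moved in both directions. Of the 6 members that passed between cushion and ventricle in wild type and again in mutants, 5 had an entry in the RefSeq promoter table of build GRCm38.p6. They are joined by Mest, with the largest fall, and by Peg3. The latter did not pass in either tissue comparison, but did when libraries were paired by replicate number. Each window runs from 250 bases before the transcription start to 50 bases after it, written 5′ to 3′ on the gene's strand. Capitals mark CG dinucleotides, the sites at which mammalian DNA is methylated. Methylation was not measured in these libraries.
Mest, chr6:30737800-30738099, plus strand: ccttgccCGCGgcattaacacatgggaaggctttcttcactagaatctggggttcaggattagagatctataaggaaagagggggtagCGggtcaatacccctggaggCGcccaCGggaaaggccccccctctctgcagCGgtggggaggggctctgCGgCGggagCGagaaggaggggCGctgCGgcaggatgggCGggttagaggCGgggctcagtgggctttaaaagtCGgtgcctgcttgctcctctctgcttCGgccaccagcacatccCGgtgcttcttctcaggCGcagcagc
Copg2, chr6:30896745-30897044, minus strand: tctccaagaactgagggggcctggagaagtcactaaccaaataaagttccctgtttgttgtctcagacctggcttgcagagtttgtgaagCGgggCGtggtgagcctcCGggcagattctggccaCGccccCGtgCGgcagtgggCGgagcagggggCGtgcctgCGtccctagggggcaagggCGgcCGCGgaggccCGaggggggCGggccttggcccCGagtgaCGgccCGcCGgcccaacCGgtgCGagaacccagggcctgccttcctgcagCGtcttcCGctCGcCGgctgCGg
Asb4, chr6:5390160-5390459, plus strand: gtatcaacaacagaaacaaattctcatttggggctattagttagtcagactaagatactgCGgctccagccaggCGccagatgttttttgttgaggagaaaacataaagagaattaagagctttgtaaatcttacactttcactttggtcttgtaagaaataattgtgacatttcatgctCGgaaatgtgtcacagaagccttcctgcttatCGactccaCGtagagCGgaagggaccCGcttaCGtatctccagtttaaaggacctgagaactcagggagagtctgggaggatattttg
Nnat, chr2:157559828-157560127, plus strand: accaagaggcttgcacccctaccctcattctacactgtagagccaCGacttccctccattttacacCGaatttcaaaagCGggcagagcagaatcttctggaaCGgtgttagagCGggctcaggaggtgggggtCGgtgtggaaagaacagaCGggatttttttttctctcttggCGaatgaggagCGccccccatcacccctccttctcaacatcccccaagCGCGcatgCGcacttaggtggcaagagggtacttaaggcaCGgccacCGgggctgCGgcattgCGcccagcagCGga
Ndn, chr7:62348027-62348326, plus strand: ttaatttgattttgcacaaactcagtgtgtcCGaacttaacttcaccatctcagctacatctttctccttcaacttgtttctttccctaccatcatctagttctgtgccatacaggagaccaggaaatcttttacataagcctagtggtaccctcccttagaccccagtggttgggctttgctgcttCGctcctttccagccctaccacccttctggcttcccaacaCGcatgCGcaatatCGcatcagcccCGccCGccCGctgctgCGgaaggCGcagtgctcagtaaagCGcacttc
Peg12, chr7:62464461-62464760, minus strand: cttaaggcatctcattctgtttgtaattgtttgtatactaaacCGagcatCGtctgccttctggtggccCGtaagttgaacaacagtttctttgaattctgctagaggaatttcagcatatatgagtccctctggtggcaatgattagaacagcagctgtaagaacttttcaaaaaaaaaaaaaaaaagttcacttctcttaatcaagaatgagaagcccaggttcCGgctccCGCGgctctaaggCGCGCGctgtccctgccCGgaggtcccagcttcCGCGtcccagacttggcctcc
Peg3, chr7:6730370-6730669, minus strand: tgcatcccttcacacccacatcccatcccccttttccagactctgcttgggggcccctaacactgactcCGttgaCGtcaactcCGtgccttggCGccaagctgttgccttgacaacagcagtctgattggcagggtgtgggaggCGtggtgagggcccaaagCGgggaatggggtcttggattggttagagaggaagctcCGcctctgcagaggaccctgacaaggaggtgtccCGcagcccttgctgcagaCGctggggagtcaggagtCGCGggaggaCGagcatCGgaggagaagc

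The windows held between 8 CG sites, in Asb4, and 25, in Copg2. Mest, which is listed with 3 starts, and Nnat had 17 each, Peg3 had 13, Peg12 had 12 and Ndn had 11. The Peg3 window overlaps that of Usp29, its neighbour on the opposite strand, by 263 bases. Over the 37 members with a promoter entry the median was 17 CG sites in 300 bases, between the median of 8 over all 27025 genes in the promoter table and that of 21 over the 10373 tested symbols with an entry. The letters CACCC, the core of the sequence that KLF proteins bind, occurred on either strand in 67.6% of the members' windows. They also occurred in 57.0% of all windows and in 63.5% of those of tested symbols, so these short letters are common in promoters of any kind.

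Mest and H19 each carry a microRNA in their transcription unit. The mature sequences are given here with the seed, bases 2 to 8, in capitals. The 4 seeds differ from each other.
miR-335-5p, chr6:30741314-30741336, plus strand: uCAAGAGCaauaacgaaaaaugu
miR-335-3p, chr6:30741354-30741375, plus strand: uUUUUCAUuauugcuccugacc
miR-675-5p, chr7:142577112-142577133, minus strand: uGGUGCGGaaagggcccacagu
miR-675-3p, chr7:142577078-142577099, minus strand: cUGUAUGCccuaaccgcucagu
Mature microRNAs were not measured, since total RNA libraries count the precursor or the host transcript. The table row for Mir335, inside a Mest intron, held few reads, at 14 and 17 in wild type cushions and 51 and 130 in wild type ventricles. This row was looked at after its values had been seen. It was lower in wild type cushions with a log2 fold change of -2.84 ± 0.47 (SE, edgeR adjusted p = 0.00501). The difference in mutants was -0.78 ± 0.45 (adjusted p = 0.326), from 25 and 32 reads in cushions and 48 and 57 in ventricles. Mir675, which overlaps an exon of H19, had 4085 to 12252 reads and did not pass in wild type (0.61 ± 0.47, adjusted p = 0.386).

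Library totals lay between 18955733 and 26579215 counts with 1 row kept per symbol, and levels are given in CPM, counts scaled by library size, of which 1 stood for 18.7 to 25.3 reads. Klf2 was at 17.3 and 12.9 CPM in wild type cushions and at 1.96 and 0.651 CPM in mutant cushions, and at 11.7 and 9.19 CPM against 0.735 and 0.625 CPM in ventricles. Nfatc1 was at 35.9 and 22.1 CPM in wild type cushions and 24.9 and 15.2 CPM in mutant cushions. In ventricles it was at 18.5 and 7.87 CPM against 17.4 and 6.83 CPM, and its genotypes overlapped in both tissues. Mutant cushion replicate 2 stood apart on the first principal component, at -22.8 against -54.9 to -46.3 in the other cushion libraries and 35.0 to 50.3 in ventricles. Markers of cushion mesenchyme summed to 8645 to 19011 CPM in cushions and 1907 to 5204 CPM in ventricles, with 7 of 12 past the threshold in wild type. Cardiomyocyte markers were present in both tissues, at 26348 to 44238 CPM in cushions and 36526 to 97509 CPM in ventricles, of which Ttn alone held 10596 to 70715 CPM. No listed marker was at 0 in all libraries, and endothelial markers summed to 1483 to 1808 CPM in cushions and 1854 to 2446 CPM in ventricles. In such bulk tissue, fewer cells of a type and less RNA per cell cannot be told apart. Libraries with the same replicate number deviated together across groups, so members whose call changed with the replicate number as a block are named.

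A few imprinted genes were among the most abundant RNAs of both tissues, while others were near or below the limit of testing. The abundance of H19 and Igf2 was known when the genes were chosen, so these levels are a description. The 43 members held 2.40% to 3.07% of all counts, and H19 alone 0.721% to 1.25%. H19, a maternally expressed noncoding RNA, ranked between 1 and 5 in CPM among all tested symbols in the 8 libraries, and between 2 and 4 in CPM per kilobase of transcript. At 3346 to 5323 CPM per kilobase it lay above every other member in every library. Mest followed with 401 to 2068 CPM per kilobase, then Igf2r with 358 to 936 and Grb10 with 520.3 to 654, and these ranges overlap one another. Cdkn1c, at 108 to 483 CPM per kilobase, lay on average above Igf2 in ventricles and below it in cushions, where Igf2 held 238 to 381 over all libraries. The ranges of Cd81 and Gnas, 206 to 287 and 202 to 265, overlapped that of Igf2. At the other end, Magel2, Slc22a18, Calcr and Nap1l5 stayed below 1 CPM per kilobase, and Phlda2, Dio3 and Ascl2 had at most 7 reads in a library.

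**Figure D1:**
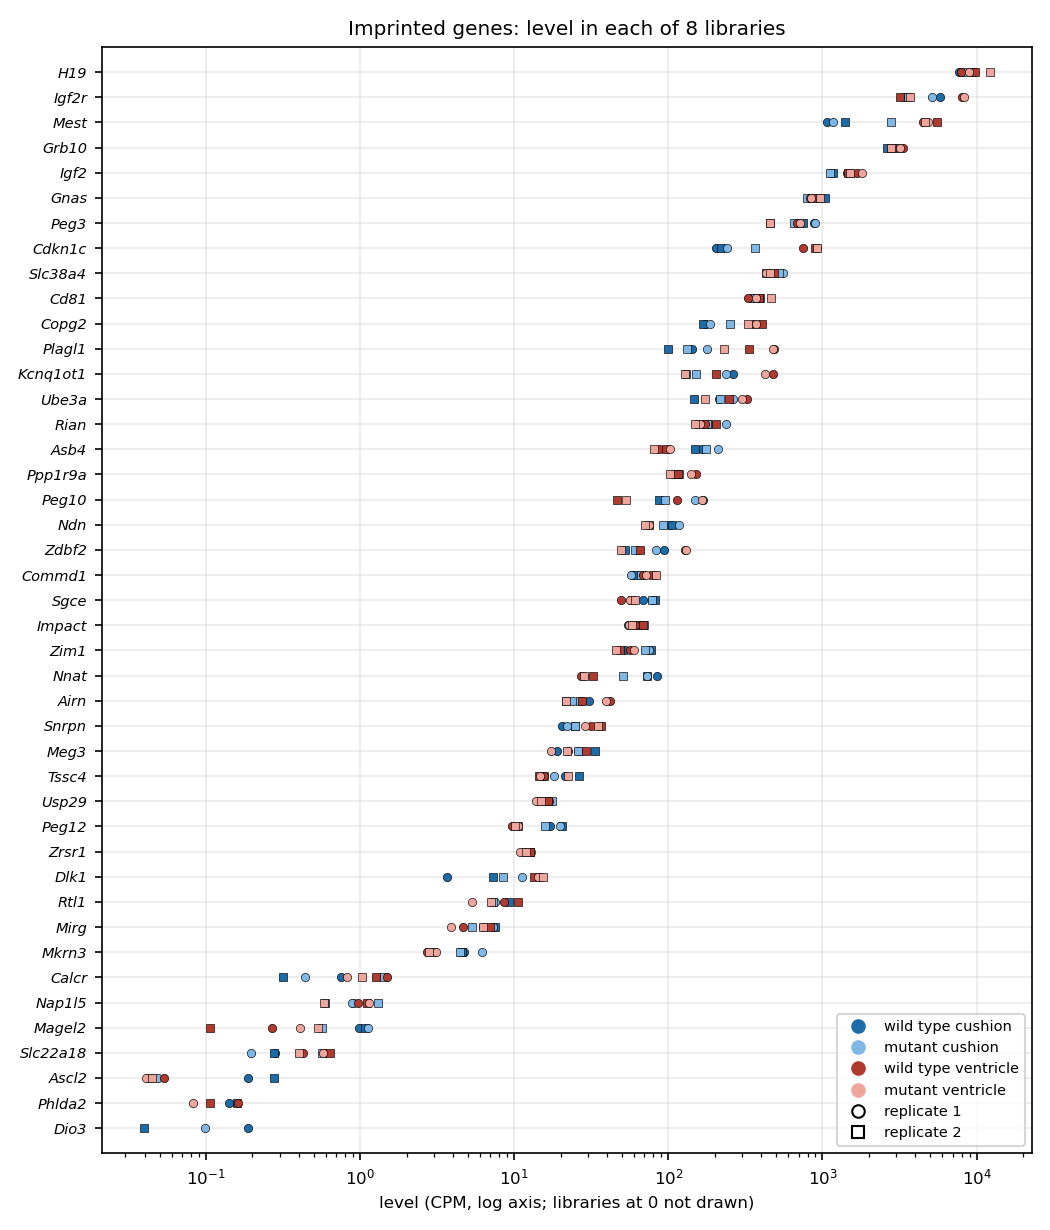
Level of each of the 43 imprinted genes in CPM (x axis, log scale) in the 8 libraries, with genes ordered by mean level; colours mark tissue and genotype, circles replicate 1 and squares replicate 2. H19 lies at 7649.5 to 12169 CPM at the top, while Mest, Cdkn1c, Plagl1 and Copg2 show cushion libraries to the left of ventricle libraries.

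Igf2, Igf2r and H19, the growth factor, its clearance receptor and the noncoding RNA that shares enhancers with Igf2, did not pass between tissues in edgeR, with or without the replicate block. H19 was at 7649.5 and 9276 CPM in wild type cushions, 9568 and 8206 CPM in mutant cushions, 7868 and 9802 CPM in wild type ventricles and 8980.4 and 12169 CPM in mutant ventricles. Igf2 was at 1441 and 1169 CPM, 1547 and 1123 CPM, 1684 and 1466 CPM, and 1797 and 1512 CPM in the same order. H19 groups overlapped throughout, while both wild type cushion libraries lay below both wild type ventricle libraries for Igf2. The log2 fold change of cushion over ventricle in wild type was -0.06 ± 0.23 (SE) for H19 and -0.27 ± 0.21 for Igf2, with edgeR adjusted p = 0.867 and 0.365. When the block fit also took GC content and transcript length into account, Igf2 fell in wild type (-0.70, adjusted p = 5.88e-04) and in mutants (-0.36, adjusted p = 0.0276). The ratio of H19 to Igf2 in CPM ran from 4.67 to 8.05 and was lower in replicate 1 of each group.

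Igf2r, which carries IGF2 to the lysosome, differed more between replicates than between tissues. It was at 5825 and 3496 CPM in wild type cushions, 5121 and 3608 CPM in mutant cushions, 8035 and 3179.7 CPM in wild type ventricles and 8315 and 3719.7 CPM in mutant ventricles. Every replicate 1 library was above every replicate 2 library. In edgeR it did not pass between tissues (adjusted p = 0.764 in wild type and 0.673 in mutants), but it fell in cushion with the block and the GC and length offset (0.0284 and 0.0296). Grb10, an adaptor that dampens insulin and IGF receptor signalling, was at 3117 and 2633 CPM in wild type cushions, 3062 and 2775 CPM in mutant cushions, 3312 and 2833 CPM in wild type ventricles and 3176 and 2784 CPM in mutant ventricles. The groups overlapped. Its log2 fold change between tissues in wild type was -0.10 ± 0.18 (SE, edgeR adjusted p = 0.727). Gnas, which encodes a stimulatory G protein subunit, was at 969 and 1044 CPM, 928 and 797 CPM, 824 and 856 CPM, and 846 and 969 CPM in the same order. Cd81, a tetraspanin gene, was at 359 and 393 CPM, 346 and 364 CPM, 331 and 386 CPM, and 373 and 460.5 CPM. Slc38a4, an amino acid transporter gene, was at 437 and 432 CPM, 557 and 521 CPM, 443 and 483 CPM, and 433 and 456 CPM. None of these 3 passed in either tissue comparison, although some did not overlap. Gnas was higher and Slc38a4 lower in wild type cushions than ventricles, and Slc38a4 was higher and Cd81 lower in mutant cushions than ventricles.

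The comparison of cushion with ventricle in wild type asks which imprinted genes mark one tissue or the other. Mest, Cdkn1c, Plagl1, Dlk1, Copg2 and Snrpn were lower in cushion, by up to 4.05-fold for Mest. Nnat, Peg12, Asb4, Magel2, Ndn and Sgce were higher. The largest ratio, 5.39-fold, was that of the very low Magel2, which its wild type ventricle reads alone would not have brought past the filter. Thus 12 of 40 tested members passed (30.0%, edgeR adjusted p under 0.05), beside 23.1% of all symbols tested, and 15 had an unadjusted p under 0.05, beside 38.5%. The 6 members that fell stand beside 10.6% of all symbols. The median log2 fold change of the members was -0.12 against 0.01 over all symbols, and the median size of change 0.48 against 0.38. Libraries of the tissues did not overlap in 24 members (60.0%), beside 65.3% of all symbols. The share of imprinted genes that passed was thus close to that of all genes, and single members are described next.

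Cdkn1c encodes p57, an inhibitor of cyclin-dependent kinases, and had the smallest p among the members. It was at 205 and 221 CPM in wild type cushions and at 747 and 888 CPM in wild type ventricles. Both cushion values lay far below both ventricle values, and the log2 fold change was -1.94 ± 0.21 (SE, n = 2 per group, adjusted p = 9.64e-04). Mest, a paternally expressed gene for a hydrolase-like protein of the endoplasmic reticulum, was at 1069 and 1406 CPM in cushions and 4524 and 5512 CPM in ventricles. Its groups were as clearly apart, at -2.02 ± 0.38 (adjusted p = 0.0102).

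Copg2, which encodes a coat protein of transport vesicles, moved with its neighbour Mest. It was at 172 and 167 CPM in cushions and 361 and 405 CPM in ventricles. The groups did not overlap, and the log2 fold change was -1.18 ± 0.17 (SE, edgeR adjusted p = 0.00318). Exons of Copg2 and Mest overlap on opposite strands in the GENCODE vM21 annotation, and the strand setting of the counting is not given in the sources used here. Reads of Mest counted for Copg2 can therefore not be told apart from Copg2 RNA. In all, 19 of the 43 members have exons that overlap a gene on the opposite strand, among them Cdkn1c, Igf2, H19, Plagl1, Nnat, Snrpn and Kcnq1ot1. The overlapping entries differ in kind. They include the protein-coding Kcnq1 for Kcnq1ot1 and are antisense RNAs for Cdkn1c and Igf2. For H19 and Plagl1 they are miscellaneous RNA entries, for Nnat a microRNA and for Snrpn a pseudogene.

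Plagl1, a zinc finger transcription factor gene, was at 142 and 100.1 CPM in cushions and 486 and 332 CPM in ventricles, a log2 fold change of -1.76 ± 0.39 (SE, edgeR adjusted p = 0.0226). Dlk1, which encodes a transmembrane protein related to NOTCH ligands, was at 3.66 and 7.28 CPM against 15.0 and 13.5 CPM (-1.37 ± 0.30, adjusted p = 0.0149). For both genes the ventricle libraries were all above the cushion libraries. The fold change of Dlk1 was -1.96 without wild type cushion replicate 2 and -0.98 without wild type cushion replicate 1. Snrpn, a gene for a spliceosomal protein, was at 20.3 and 24.8 CPM in cushions and 31.4 and 36.4 CPM in ventricles (-0.59 ± 0.17, adjusted p = 0.0369), a smaller step with no overlap.

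Nnat had the clearest excess in cushions. Neuronatin, its product, is a small membrane protein known from neural and endocrine tissue. It was at 83.9 and 72.7 CPM in wild type cushions and 27.2 and 32.4 CPM in ventricles, with no overlap and a log2 fold change of 1.39 ± 0.19 (SE, edgeR adjusted p = 0.00247). Asb4, which encodes a SOCS box protein of the vascular lineage, was at 166 and 149.7 CPM against 87.4 and 96.5 CPM (0.78 ± 0.16, adjusted p = 0.0123). Sgce, the epsilon-sarcoglycan gene of the same Peg10 cluster, was at 68.4 and 81.5 CPM against 49.6 and 58.2 CPM (0.48 ± 0.14, adjusted p = 0.0409). Both rose in cushion, while Ppp1r9a and Calcr of that cluster had negative fold changes of -0.28 and -1.39 that did not pass. Calcr rests on 8 to 28 reads in the wild type libraries. Peg10 itself, at 0.67, did not pass (edgeR adjusted p = 0.524) but rose with the replicate block (0.0200).

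The cluster around Snrpn and Ndn was split. Ndn and Magel2, which encode MAGE family proteins, and Peg12, a FRAT family gene of the WNT pathway, were higher in cushion, and Snrpn was lower. Ndn was at 103 and 105 CPM in cushions and 73.7 and 75.2 CPM in ventricles (0.48 ± 0.14, SE, edgeR adjusted p = 0.0375). Peg12 was at 17.1 and 20.3 CPM against 9.68 and 10.6 CPM (0.89 ± 0.18, adjusted p = 0.0103). Magel2 was at 0.986 and 1.07 CPM against 0.267 and 0.106 CPM (2.43 ± 0.59, adjusted p = 0.0217). All 3 had both cushion libraries above both ventricle libraries. Magel2, however, rests on 2 to 5 reads in wild type ventricles, too few to meet the filter on low counts by themselves. It was tested because of its other libraries, among them the wild type cushions at 21 and 27 reads, the group where it is high. The fold change of Magel2 was 3.21 without wild type ventricle replicate 1 and 1.92 without wild type ventricle replicate 2. Mkrn3, a ring finger gene of the cluster, was at 4.74 and 4.55 CPM against 2.73 and 2.96 CPM and did not pass (0.71 ± 0.25, adjusted p = 0.0709), but rose with the replicate block (adjusted p = 0.0331). Ube3a, a ubiquitin ligase gene, had a fold change of -0.67 (adjusted p = 0.140) and fell with the block (9.24e-04).

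**Figure D2:**
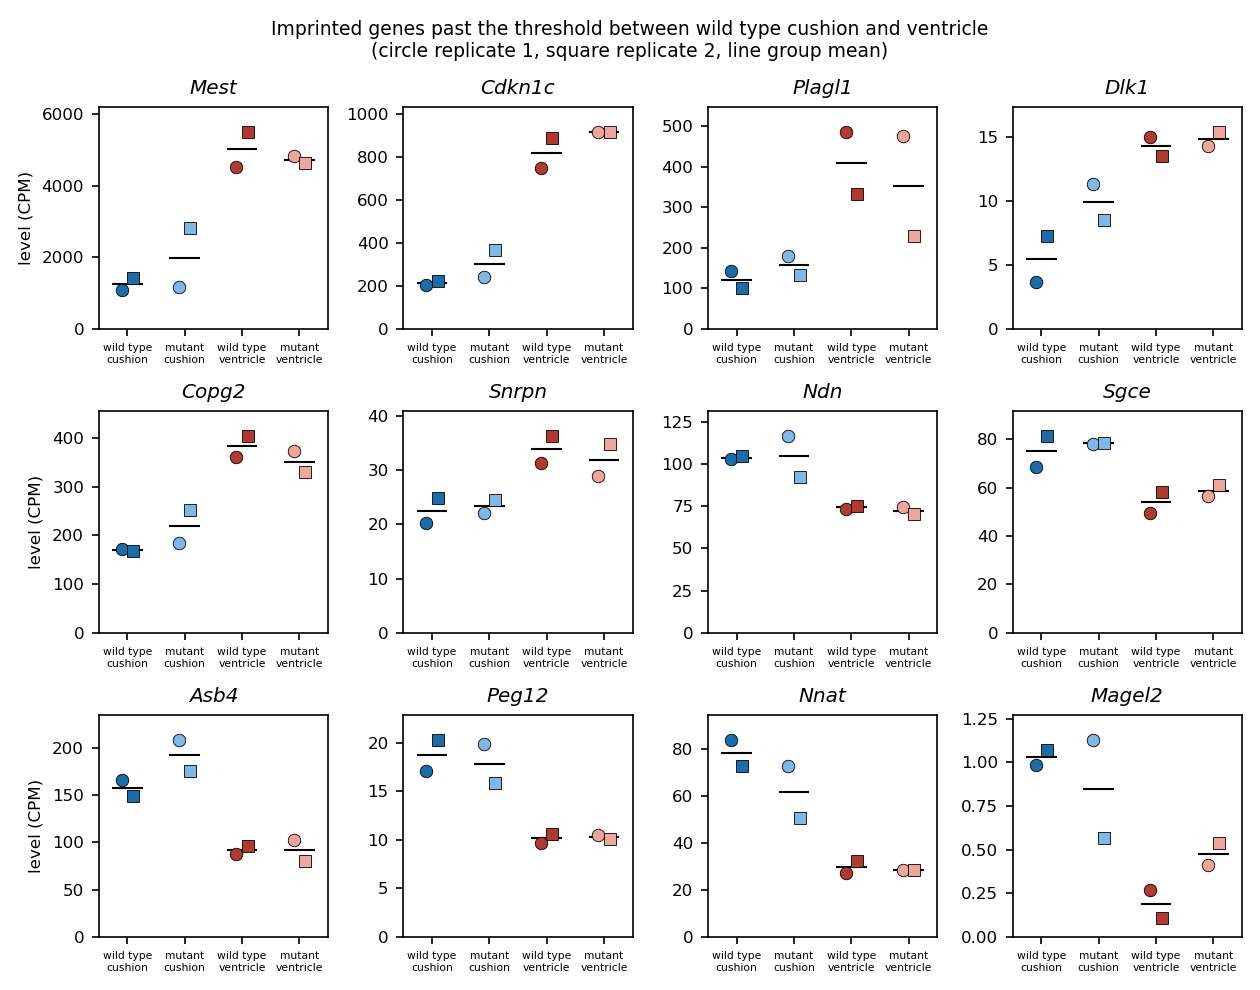
Level in CPM (y axis from 0) of the 12 imprinted genes past the threshold between wild type cushion and ventricle, in each library by group; lines are group means, circles replicate 1 and squares replicate 2. The first 6 panels, from Mest to Snrpn, are lower in cushion and the last 6 higher. Of the cushion libraries, mutant cushion replicate 2 lies nearest the ventricles for Mest, Cdkn1c, Copg2, Nnat, Ndn, Peg12 and Magel2.

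With the replicate number as a block, 19 of 40 members passed (47.5%), beside 41.4% of all symbols, 10 of them higher (21.2% of all symbols) and 9 lower (20.1%). The added members were Mkrn3, Peg10, Peg3 and Tssc4, which rose, and Commd1, Kcnq1ot1 and Ube3a, which fell. The calls of single members depended on single libraries, as 2 libraries a group allow. Cdkn1c, Copg2 and Nnat passed without any of the 8 libraries. Of the 12 calls, 5 were kept without wild type cushion replicate 1, 6 without wild type cushion replicate 2, 5 without wild type ventricle replicate 1 and 3 without wild type ventricle replicate 2. Leaving out either mutant cushion library ended the calls of Sgce and Snrpn, and leaving out mutant ventricle replicate 1 ended that of Sgce. Adjusted p over all alternatives ran from 3.50e-08 to 0.0698 for Mest and from 1.44e-04 to 0.259 for Sgce.

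Some cell type markers moved with tissue beside these genes. Cushion mesenchyme markers were higher in cushion as given above. Of the 6 tested neural markers 3 were higher in wild type cushions, Tubb3, Sox10 and Stmn2, and all 7 listed neural markers together summed to 46.1 and 47.2 CPM there and to no more than 13.3 CPM in any ventricle library. Of 10 cardiomyocyte markers 2 were lower, Myl2 and Tnnt2, while Myl7 had a fold change of 0.89 (edgeR adjusted p = 0.0506, and 0.00261 with the block) and Myh6 of 0.73 (adjusted p = 0.238). Of the other lists, 2 of 10 endothelial markers were lower, 1 of 7 epicardial markers was higher and 2 lower, 1 of 7 leukocyte and 1 of 5 platelet markers were higher, and none of 4 erythroid markers passed. In mutants 6 of 12 mesenchyme, 3 of 6 neural, 1 of 7 leukocyte and 1 of 7 epicardial markers were higher. There 3 of 10 cardiomyocyte, 2 of 10 endothelial, 1 of 7 epicardial and 1 of 5 platelet markers were lower, and none of 4 erythroid markers passed. In wild type, the shares of mesenchyme, neural and epicardial markers that passed were above the 23.1% of all symbols. Those of cardiomyocyte, endothelial, leukocyte, platelet and erythroid markers were below it. In mutants all lists but the erythroid were above the 9.42% of all symbols, the leukocyte and platelet lists by 1 gene. The part of these cell types in the differences of Nnat, Magel2, Mest or Cdkn1c was not tested.

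In mutants the same tissue comparison uses no library of the wild type comparison. Of 40 members 6 passed (15.0%), beside 9.42% of all symbols, namely Asb4, Nnat, Peg12 and Ndn, higher in cushion (6.16% of all symbols were), and Cdkn1c and Copg2, lower (3.26% were). Groups did not overlap in 22 members (55.0%), beside 53.1% of all symbols. All 6 calls were among the 12 of wild type, so that 6 of 6 mutant calls and 6 of 12 wild type calls were shared. Over all symbols the shared calls were 79.0% of the mutant and 32.2% of the wild type calls. All 12 wild type calls had the same sign in mutants, as did 91.3% of the calls over all symbols. The 2 comparisons were fitted together and share an estimate of the spread.

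Cdkn1c was at 240.5 and 366 CPM in mutant cushions and 916 and 918 CPM in mutant ventricles. The tissues did not overlap, and the log2 fold change was -1.60 ± 0.21 (SE, edgeR adjusted p = 0.00353). Asb4 was at 209 and 176 CPM against 103 and 80.5 CPM, again with no overlap (1.07 ± 0.16, adjusted p = 0.00681). Nnat was at 72.8 and 50.6 CPM against 28.5 and 28.4 CPM (1.12 ± 0.19, adjusted p = 0.0102). No library of one tissue reached those of the other for any of the 3, with the 2 mutant cushion libraries further from each other than the 2 mutant ventricle libraries for Cdkn1c and Nnat.

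Copg2 was at 185 and 253 CPM in mutant cushions and 373 and 330.3 CPM in mutant ventricles (-0.68 ± 0.17, SE, edgeR adjusted p = 0.0412). Peg12 was at 19.8 and 15.8 CPM against 10.5 and 10.1 CPM (0.78 ± 0.18, adjusted p = 0.0276), and Ndn at 117 and 92.4 CPM against 74.9 and 70.2 CPM (0.53 ± 0.14, adjusted p = 0.0470). None of the 3 overlapped between tissues. Mest was at 1176 and 2803 CPM in mutant cushions and 4826 and 4623 CPM in mutant ventricles. Its log2 fold change of -1.25 ± 0.37 did not pass (adjusted p = 0.0792) although the groups did not overlap, and it fell with the replicate block (0.00544). Plagl1, at 179 and 133 CPM against 474 and 228 CPM, and Dlk1, at 11.3 and 8.47 CPM against 14.3 and 15.4 CPM, missed the threshold (adjusted p = 0.116 and 0.249). Under the block Plagl1 fell (8.81e-05), whereas Dlk1 stayed above it (0.123).

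With the block 14 of 40 members passed in mutants (35.0%), 8 higher and 6 lower, beside 23.9% of all symbols (13.4% higher and 10.5% lower). Beside Mest and Plagl1, the block added Mkrn3 (adjusted p = 0.0204), Peg3 (0.0309), Rian (0.0437) and Sgce (0.0120), which rose, and Snrpn (0.0159) and Commd1 (0.0367), which fell. In the fit without the block their adjusted p were 0.0680, 0.421, 0.170, 0.104, 0.134 and 0.200 in this order. Without mutant cushion replicate 1, of the 6 calls only that of Cdkn1c was kept, 2 were kept without mutant ventricle replicate 2, 3 without mutant ventricle replicate 1 or without either wild type ventricle library, 4 without either wild type cushion library, and all 6 without mutant cushion replicate 2. Without this last library the Mest fold change was -2.01, and without mutant cushion replicate 1 it was -0.75.

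**Figure D3:**
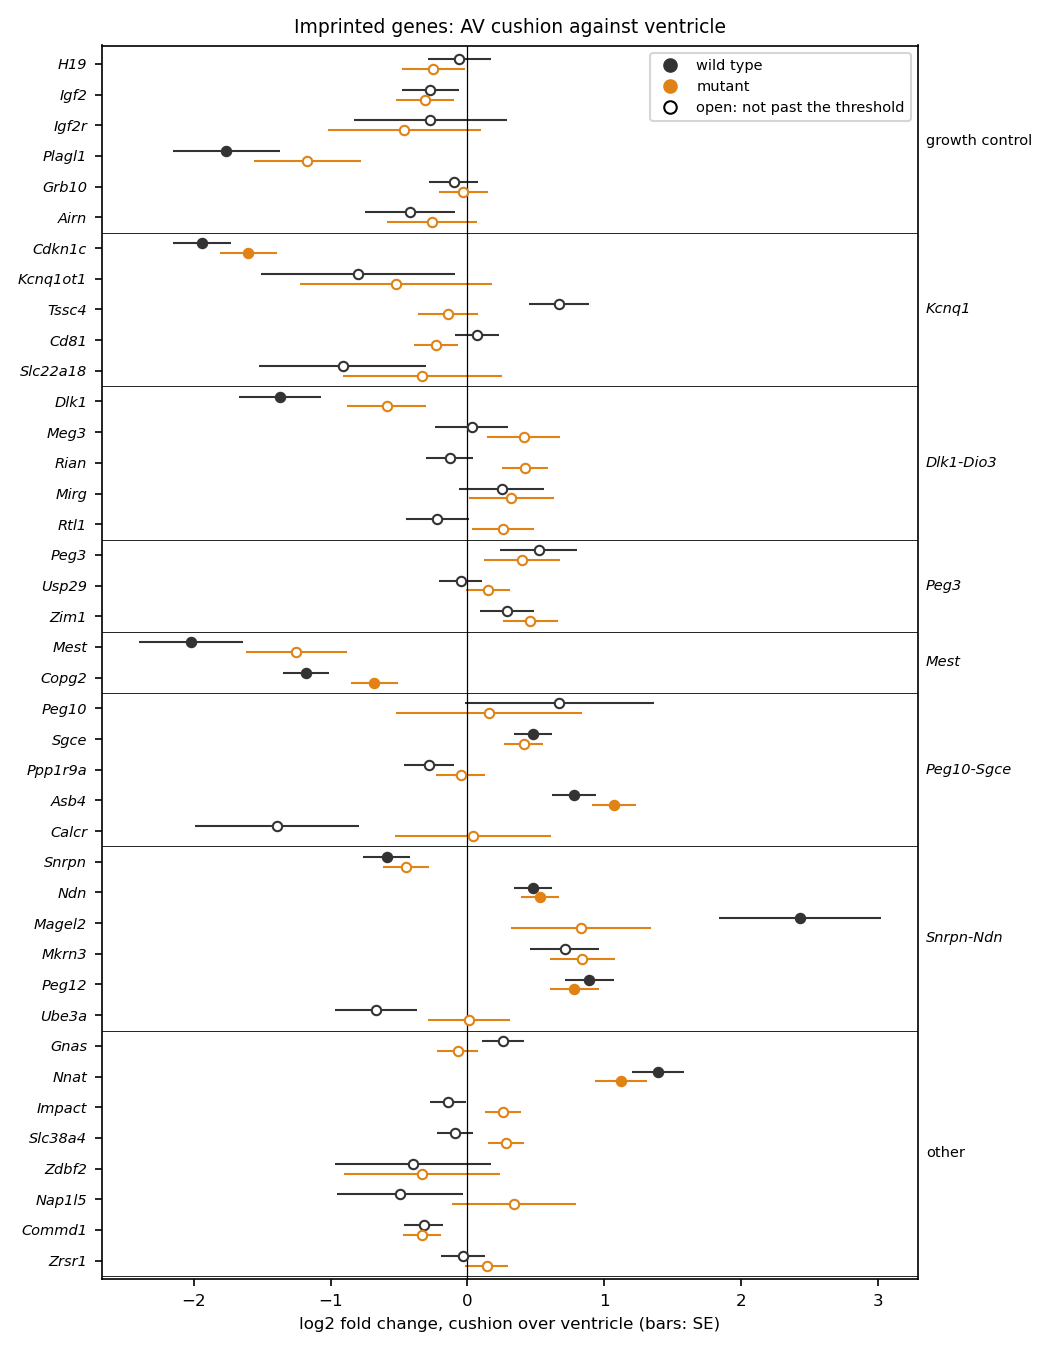
Log2 fold change of cushion over ventricle (x axis, bars are SE) for the 40 tested imprinted genes, by cluster, in wild type (black) and mutants (orange); filled points passed the threshold. Cdkn1c, Copg2, Asb4, Ndn, Peg12 and Nnat are filled in both genotypes, on the same side of 0.

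The genotype comparisons ask whether imprinted genes differ when Klf2, and perhaps Nfatc1, is altered. In cushions the largest differences were those of Calcr, Dlk1, Mest and Nap1l5, at log2 fold changes of 0.85, 0.84, 0.68 and 0.57, each higher in mutants, and none passed. Calcr, at 8 to 33 reads in a cushion library, and Nap1l5, at 15 to 30 reads, were near the limit of testing. Both overlapped between genotypes, as did Mest. None of 40 members passed in edgeR, beside 0% of all symbols, and none passed with DESeq2, limma-voom or the replicate block (smallest adjusted p with the block 0.0894). With the block 0.863% of all symbols passed, 0.295% higher and 0.569% lower. Klf2 itself did not pass either (log2 fold change -3.54 ± 0.42, SE, adjusted p = 0.145), and fell with the block (2.86e-05). An unadjusted p under 0.05 was seen in 4 of 40 members, beside 11.4% of all symbols, so the members did not stand out. Groups did not overlap in 10 of 40 members, beside 48.4% of all symbols. The median log2 fold change was 0.05 over the members and -0.01 over all symbols.

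The 4 members below an unadjusted p of 0.05 were Dlk1, Cdkn1c, Slc38a4 and Tssc4. Dlk1 was at 3.66 and 7.28 CPM in wild type and 11.3 and 8.47 CPM in mutant cushions (0.84 ± 0.30, SE, edgeR adjusted p = 0.435). Cdkn1c was at 205 and 221 CPM against 240.5 and 366 CPM (0.51 ± 0.20, adjusted p = 0.435). In both genes the mutant libraries lay above the wild type libraries, and for Cdkn1c most of the difference came from mutant cushion replicate 2, without which the fold change was 0.18. Slc38a4 was at 437 and 432 CPM against 557 and 521 CPM (0.31 ± 0.13, adjusted p = 0.435). Tssc4, a gene of the Kcnq1 cluster with exons that overlap Trpm5 on the opposite strand, was at 21.5 and 26.5 CPM against 18.0 and 15.5 CPM (-0.52 ± 0.22, adjusted p = 0.435). These 2 also had no overlap between genotypes.

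Mest had one of the larger genotype differences in cushions, from 1 library. It was at 1069 and 1406 CPM in wild type cushions, and at 1176 CPM in mutant replicate 1 and 2803 CPM in mutant replicate 2. The genotypes overlapped, and the log2 fold change of 0.68 ± 0.37 (SE, edgeR adjusted p = 0.483) became -0.07 without mutant cushion replicate 2. The same library was highest among cushions for Copg2, Cdkn1c, the ventricular myosin gene Myl2 (3965 CPM against 2074 to 3374 CPM) and the natriuretic peptide gene Nppa (754 CPM against 142 to 335 CPM). No other listed cardiomyocyte marker was highest in this library, and Myh7, also a ventricular myosin gene, was lowest in it (3725 CPM against 3767 to 5967 CPM). The 10 cardiomyocyte markers summed to 28228 CPM in this library and to 26348 to 44238 CPM in the other cushions. It was also lowest among cushions for Nnat (50.6 CPM against 72.7 to 83.9 CPM), Ndn, Peg12 and Magel2, which were higher in wild type cushions. Asb4 and Sgce were not lowest in it, and Plagl1, Dlk1 and Snrpn were not highest. Of the endothelial markers, Emcn (112 CPM against 38.0 to 47.9 CPM) and Npr3 (400.2 CPM against 198 to 261 CPM) were highest in it, while Flt1 and Eng were lowest. The part of ventricular muscle in the Mest value was not tested. When mutant cushion replicate 1 was left out of the block fit, 6 of 40 members passed, beside 5.84% of all symbols, with Cdkn1c, Copg2, Mest and Ube3a higher and Nnat and Tssc4 lower. The mutant cushion group is then replicate 2 alone, which stood apart, and it is assumed to vary like the other groups. Dlk1 passed in the block fit without wild type cushion replicate 2 (beside 0.164% of all symbols), and also without mutant cushion replicate 2 (beside 1.59%), each with a single library in 1 group.

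For the most abundant members, the intervals show what size of genotype difference the cushion libraries leave room for. The log2 fold change of H19 was 0.07, with a 95% confidence interval from -0.45 to 0.59, and that of Igf2 was 0.03, from -0.43 to 0.50. Grb10 was at 0.02, from -0.38 to 0.42, and Igf2r at -0.09 with a wide interval from -1.43 to 1.24. Peg3, a zinc finger gene, was at 884 and 748 CPM in wild type and 898 and 653 CPM in mutant cushions, and at 684 and 455 CPM in wild type and 713 and 459 CPM in mutant ventricles. Its genotypes overlapped in both tissues, and the cushion fold change was -0.07, from -0.71 to 0.56.

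In ventricles none of 40 members passed between genotypes in edgeR, DESeq2, limma-voom or the block fit, beside 0% of all symbols in edgeR and 0.00669% with the block. Only Rtl1, a retrotransposon-derived gene of the Dlk1 cluster, had an unadjusted p under 0.05 (2.50% of the members, beside 2.29% of all symbols). It was at 8.55 and 10.6 CPM in wild type ventricles and 5.31 and 7.05 CPM in mutant ventricles. The groups did not overlap (-0.63 ± 0.23, SE, edgeR adjusted p = 0.998). The largest log2 fold change, 1.31, was that of the very low Magel2. It rested on 5 and 2 reads in wild type ventricles and 10 and 12 in mutant ventricles. Groups did not overlap in 8 members (20.0%), beside 27.7% of all symbols. Mest was at -0.09 with an interval from -0.93 to 0.76, H19 at 0.26 from -0.26 to 0.78, and Igf2 at 0.07 from -0.40 to 0.54.

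**Figure D4:**
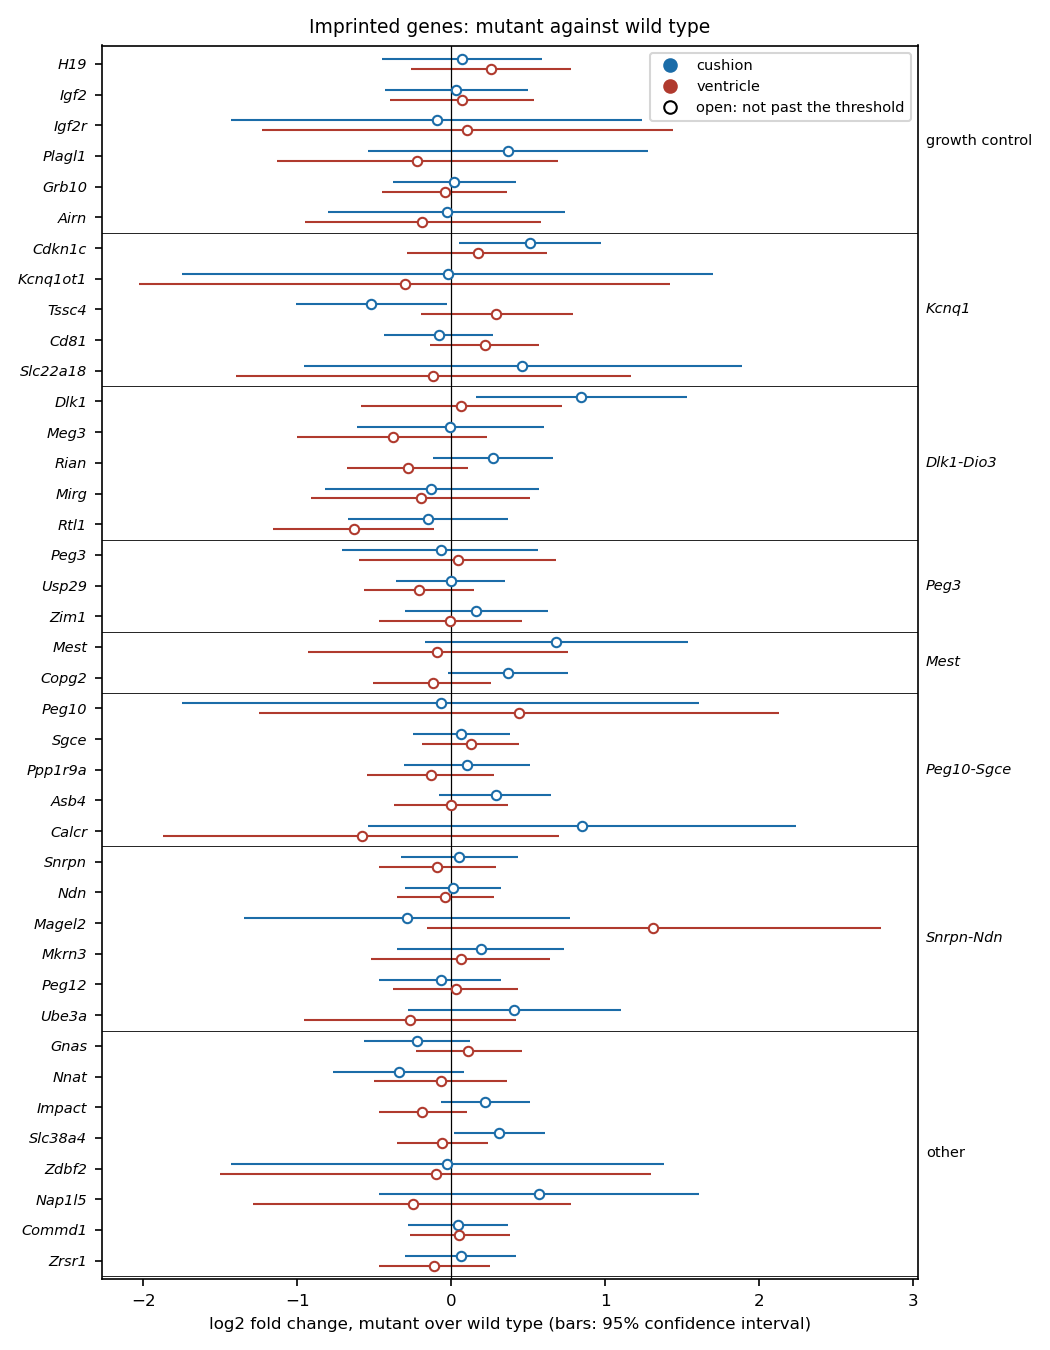
Log2 fold change of mutant over wild type (x axis) with 95% confidence intervals for the 40 tested imprinted genes in cushion (blue) and ventricle (red), by cluster; all points are open because none passed the threshold. Narrow intervals such as those of Ndn and Sgce lie near 0, while Kcnq1ot1, Peg10, Igf2r and Zdbf2 have wide ones.

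The genotype difference in cushions was compared with that in ventricles through the interaction term. None of 40 members passed in edgeR, DESeq2, limma-voom or the block fit, beside 0% of all symbols. An unadjusted p under 0.05 was seen in 3 members (7.50%), beside 11.9% of all symbols. The most extreme values, -1.60 for Magel2 and 1.43 for Calcr, both near the limit of testing, were not among them. Tssc4 had an interaction of -0.81 ± 0.31 (SE, edgeR adjusted p = 0.415), Rian, a noncoding RNA that hosts small nucleolar RNAs, 0.56 ± 0.24 (adjusted p = 0.419), and Impact, a regulator of translation, 0.41 ± 0.18 (adjusted p = 0.419). Rian was at 184 and 159 CPM in wild type and 237 and 177 CPM in mutant cushions, and at 173 and 204 CPM in wild type and 159.6 and 149.5 CPM in mutant ventricles. It overlapped between genotypes in cushions and not in ventricles. Impact was at 55.1 and 61.8 CPM against 66.5 and 69.9 CPM in cushions and at 60.5 and 68.6 CPM against 55.7 and 57.8 CPM in ventricles, with no overlap in either tissue. In the block fit 6 members passed without mutant cushion replicate 1, beside 8.60% of all symbols, and 4 without mutant ventricle replicate 1, beside 7.83%. Each of these fits has 1 group with a single library, which is assumed to vary like the others.

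The replicate number moved some imprinted genes more than the genotype did. Among the 40 members 9 were higher in replicate 1 than in replicate 2 of all 4 groups, beside 19.1% of all symbols, and 7 were lower in all, beside 17.1%. The long noncoding RNA Kcnq1ot1, which silences the Kcnq1 cluster in cis, was at 262 and 130.1 CPM in wild type cushions, 235 and 151 CPM in mutant cushions, 479 and 203 CPM in wild type ventricles and 425 and 128 CPM in mutant ventricles. Peg10, a retrotransposon-derived gene, was at 168 and 87.2 CPM, 149 and 94.6 CPM, 114 and 46.5 CPM, and 165 and 52.9 CPM in that order. For both, every replicate 1 library was above every replicate 2 library. Both were over 1.5 times higher in replicate 1 of all groups, 2 of 40 members beside 1.93% of all symbols. The labels do not say what the number marks, and a technical source was not tested.

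**Figure D5:**
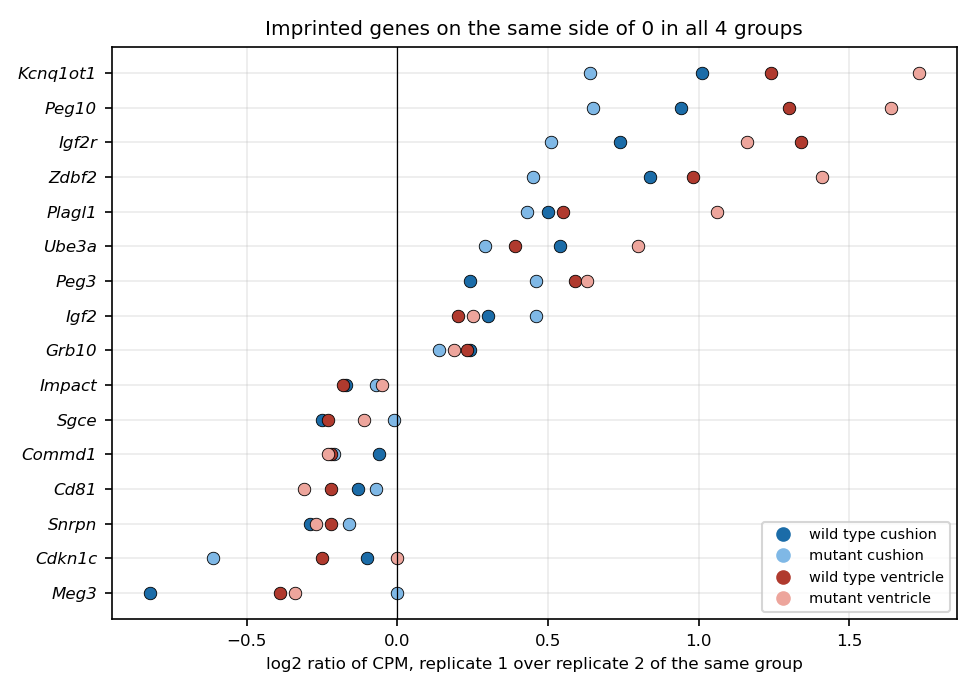
Log2 ratio of CPM in replicate 1 over replicate 2 (x axis) in each of the 4 groups for the 16 imprinted genes whose ratio has the same sign in all groups. Kcnq1ot1 runs from 0.64 to 1.73 and Peg10 from 0.65 to 1.64, whereas Meg3 and Cdkn1c reach values close to 0.

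Among genes that maintain imprints, the share that passed between tissues was near that of all genes in wild type. Of 23 tested genes on this list, Trim28, a co-repressor that zinc finger proteins bring to imprinted control regions, and Ehmt2, a histone methyltransferase, were higher in wild type cushions. Suz12 and Eed, subunits of Polycomb complex PRC2, and Hells, a chromatin remodeller, were lower. These 5 of 23 (21.7%) stand beside 23.1% of all symbols, with log2 fold changes from -0.80 for Suz12 to 0.69 for Ehmt2. With the block 9 of 23 passed (39.1%, beside 41.4%), and the added genes were Dnmt3b (adjusted p = 0.0256), which rose, and Cbx3 (0.0350), Cbx5 (0.0462) and Tet1 (0.0204), which fell. When the block fit also took GC content and transcript length into account, Trim28 (0.05, adjusted p = 0.615) and Ehmt2 (0.14, adjusted p = 0.191) no longer passed. In mutants 0 of 23 passed in edgeR, beside 9.42% of all symbols, and 2 had an unadjusted p under 0.05 (8.70%, beside 3737 of 14940 symbols in all). Both of them, Zfp57 and Zfp445, which encode zinc finger proteins that bind methylated imprinted regions, rose with the block (adjusted p = 0.0166 and 0.00469), where 23.9% of all symbols passed. No gene of this list passed between genotypes in either tissue.

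Zfp57 was at 27.6 and 29.1 CPM in wild type cushions, 32.8 and 29.8 CPM in mutant cushions, 26.2 and 30.8 CPM in wild type ventricles and 22.4 and 22.7 CPM in mutant ventricles. Cushion and ventricle overlapped in wild type and not in mutants. Suz12 was at 156 and 142 CPM, 198 and 212 CPM, 255 and 264 CPM, and 229.8 and 203 CPM in the same order. Its tissues were apart in wild type (-0.80 ± 0.13, SE, edgeR adjusted p = 0.00481) and overlapped in mutants (-0.08 ± 0.13, adjusted p = 0.757). In the interaction no gene of this list passed (smallest edgeR adjusted p = 0.415, and 0.0852 with the block), so a loss of the difference in mutants was not shown. An unadjusted p under 0.05 was seen there in 8 of 23 genes (34.8%), beside 11.9% of all symbols.

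In the IGF pathway around Igf2 and Igf2r, 5 of 19 tested genes passed in wild type (26.3%, near the 23.1% of all symbols), with Igfbp7, Igfbp3 and Igf1 higher in cushion and Lin28a and Lin28b lower. With the block 10 of 19 passed (52.6%, beside 41.4%), among them Akt1 (adjusted p = 0.0331) and Igfbp5 (0.00715), which rose, and Igf2bp3 (0.0247) and Insr (0.0455), which fell. Igfbp7, a secreted IGF binding protein of endothelium, was at 57.0 and 46.5 CPM in wild type cushions and 10.5 and 9.24 CPM in ventricles (2.39 ± 0.24, SE, edgeR adjusted p = 7.77e-04). Lin28b, an RNA-binding protein gene that blocks let-7 maturation, was at 5.92 and 5.42 CPM against 16.4 and 19.5 CPM (-1.66 ± 0.19, adjusted p = 0.00120). Neither overlapped between tissues. Igf1, the related ligand, was at 367 and 213 CPM against 110.4 and 77.8 CPM (1.62 ± 0.43, adjusted p = 0.0415), with no overlap.

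In mutants Igfbp7 was again higher (2.14 ± 0.23, SE, edgeR adjusted p = 0.00209), and Lin28b (-1.13 ± 0.19, adjusted p = 0.00956) and Igfbp2 (-1.07 ± 0.27, adjusted p = 0.0468) were lower, 3 of 19 genes (15.8%) beside 9.42% of all symbols. With the block 5 of 19 passed (26.3%, near the 23.9% of all symbols), as Igf1 (adjusted p = 7.05e-07) and Igfbp3 (0.0125) rose as well. Igfbp7 was at 50.2 and 32.8 CPM in mutant cushions and 10.5 and 8.30 CPM in mutant ventricles, and Lin28b at 6.77 and 7.51 CPM against 17.3 and 14.0 CPM. Both kept the order of wild type with no overlap. No gene of the pathway passed between genotypes in either tissue.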

How the data were processed

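Total RNA libraries were made with a stranded kit after removal of ribosomal RNA, per the labels' protocols. Bowtie 0.12.7 and build mm9 are named in the submitters' processing notes. The values the authors deposited are raw read counts. Program, annotation and strand setting of the counting: not given in the sources used here. All 8 deposited tables were identical, so 1 was read. It has 28644 rows, of which 1 per symbol, that of largest total, was used, 15 of the 43 members lying on several rows. Levels are CPM after TMM scaling. Tests used edgeR 4.0.16 in R 4.3.3 (filter by expression, robust quasi-likelihood, all 8 libraries in 4 groups, two-sided, Benjamini-Hochberg over 14940 symbols, threshold 0.05). They were also run on simulated counts that held no tissue difference and no shared deviation by replicate number. That check therefore does not cover these features of the data. The SE is the log2 fold change over the root of F. Transcript lengths and overlaps came from GENCODE vM21, matched for 98.2% of symbols, and promoters and microRNAs from RefSeq tables of build GRCm38.p6, with no entry for 6 members. Where several starts were listed, the window with the most CG sites was used.

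Deviations of replicate 1 from the group mean correlated across symbols in all 6 pairs of groups (Pearson r from 0.341 to 0.522), and the second principal component (14.1% of variance) separated the numbers, so they were taken to pair the libraries, from the data and not from the labels. Replicates differed by more than counting error (chi-square per degree of freedom 43.0 to 111.4). Alternatives were DESeq2 1.42.0, limma 3.58.1 (voom), scaling, filter, row choice, block, GC and length offset, and leaving out each library. The block with a library left out was added after seeing the data. Members and lists were chosen with earlier results of these data known. Per-library values are given for the 10 most abundant members, those that passed (at most 12 each way), those with an unadjusted p under 0.05 between genotypes, and Klf2. Kcnq1ot1, Peg10, Mkrn3, Mir335, Mir675, Nfatc1, Emcn, Npr3, Flt1 and Eng were named after their values were seen.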

Additional observations from a re-analysis of the deposited data

How the results depend on the processing

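With 2 libraries a group, many calls of single members were lost when a library of the groups compared was left out, and fewer when another was. The member count in wild type tissues, 12, was 19 with the replicate block and 22 with the block and a GC and length offset, and 3 to 13 with 1 library left out (10 to 22 in the block fit). The count over all symbols, 3452, was 6180 and 5984 under these fits and 739 to 3498 with a library left out. In mutant tissues the member count, 6, was 14 and 16, 3 with only the 4 libraries compared, and 1 to 7 with a library left out (10 to 17 in the block fit). The count over all symbols, 1407, was 3572, 4506 and 641, and 309 to 1301. Between genotypes the member counts of 0 held under every alternative without the block and under the block with all libraries; with the block and a library left out they were 0 to 6 in cushion, 0 to 0 in ventricle and 0 to 6 for the interaction. Over all symbols the cushion count of 0 was 5 without the filter, 25 with DESeq2, 2 with limma-voom, 129 with the block, 65 with block and offset, 1 with only the libraries compared, and 0 to 1 with a library left out. The ventricle count of 0 was 1 with DESeq2, the block, block and offset, and only the libraries compared, and 0 to 1 with a library left out. Small genotype differences changed sign. Block and offset gave -0.03 for Igf2 in ventricle and -0.03 for the interaction of Rian. With a library left out, the cushion log2 fold change ran from -0.08 to 0.22 for H19, from -0.22 to 0.25 for Igf2 and from -0.07 to 1.18 for Mest, and that in ventricle from -0.05 to 0.20 for Igf2 and from -0.20 to 0.06 for Mest. Of 749 values for single genes under alternatives, 639 kept direction and side of the threshold, 65 lost a call, 35 gained one and 10 changed sign. The causes were not tested. Depth limits Magel2, Calcr, Slc22a18 and Nap1l5, at about 1 CPM or below.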
